A study of Mus musculus with 8 samples.

Results

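The genes described here are the MYC and MAX network, 10 genes chosen by symbol for their known membership: *Myc*, *Mycn*, *Max*, *Mxd1*, *Mxd3*, *Mxd4*, *Mnt*, *Mga*, *Mlx* and *Mlxip*. All 10 were found among the 22520 rows of the expression table. They were measured by bulk RNA-seq in splenic CD8+ T cells of WT mice, purified by negative selection and kept for 6 days under persistent stimulation with anti-CD3 and anti-CD28 antibodies and IL-2. From day 3 the medium held either 40 µM DADA (diisopropylamine dichloroacetate, an inhibitor of pyruvate dehydrogenase kinases) or the same volume of its solvent DMSO, and the cells were harvested on day 6. Each group had 4 libraries, described as biological replicates, and the labels give neither the strain nor the age of the mice, nor whether the libraries came from separate mice. The study's methods list young adult male C57BL/6J mice among its animals, without naming the source of these cultures. P-values measure the spread between these libraries. The comparison asks how the transcripts of the network differed after DADA in cells driven toward exhaustion.

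MYC is a transcription factor of growth and proliferation that T cells switch on after antigen receptor and IL-2 signals. It binds DNA only as a dimer with MAX, at E-boxes, and MAX forms the same kind of dimer with the repressors MXD1, MXI1, MXD3, MXD4 and MNT, which recruit the SIN3 corepressor, and with MGA, the scaffold of a repressive Polycomb complex. MLX stands at the centre of a parallel branch, in which it pairs with MLXIP (MondoA), a sensor of glucose-derived metabolites, or with some of the MXD proteins. In textbook accounts, MYC is high in dividing cells, and several MXD proteins rise as cells leave the cycle and differentiate.

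Expression was deposited as FPKM, in which fragments are divided by the length of the transcript and by the mapped total, so that levels of different genes can be set side by side. The sum of all FPKM ranged from 450473 to 456939 in DMSO libraries and from 438299 to 449480 in DADA libraries. The table holds no counts. The steps between the lowest values gave a rough depth of 13.57 to 16.19 M fragments (1 M is 1000000) with DMSO and 15.26 to 18.88 M with DADA, and 2 times these depths could not be told apart from them. Differences are given as log2 fold changes of FPKM + 1, DADA against DMSO, and a gene is called at an adjusted p-value from limma under 0.05. The 10666 genes with 1 FPKM or more in 4 libraries were tested. Of all genes tested, 66.2% were called, 30.9% higher and 35.3% lower with DADA. The 6 CD8 T cell markers present in the table (*Cd8a*, *Cd8b1*, *Cd3d*, *Cd3e*, *Cd3g*, *Cd2*) summed to 837 to 857 FPKM with DMSO and to 1064 to 1094 FPKM with DADA, and each was called higher. The 6 myeloid markers summed to at most 0.188 FPKM in any library and the 4 erythroid markers to at most 0.241 FPKM. Of B cell markers, *Pax5* was listed at 0 in all libraries, and *Cd79b* was at 2.42 to 3.47 FPKM with DMSO and at 2.18 to 2.90 FPKM with DADA. The 4 markers of CD4 T cells summed to 16.3 to 17.4 FPKM with DMSO and 15.3 to 15.8 FPKM with DADA. The 4 NK cell markers summed to 13.3 to 14.2 FPKM with DMSO and 10.1 to 11.2 FPKM with DADA. *Zbtb7b* alone among the CD4 markers and *Eomes* alone among the NK markers reached 1 FPKM, so each sum mostly describes 1 gene. Below 1 FPKM, *Foxp3* (at most 0.268 FPKM) and *Klrb1c* (at most 0.249 FPKM) were higher in all DADA libraries. *Cd40lg* (at most 0.279 FPKM) was lower in all of them, and the groups overlapped for *Cd4*, *Ncr1* and *Klra8*. The part of such cells in the results was not tested, and in bulk RNA fewer cells with a transcript cannot be told apart from less of it in each cell.

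The site that dimers of MAX recognise is the E-box CACGTG, whose letters read the same on both strands. RefSeq promoter windows (GRCm38.p6, from 250 bases before to 50 after a transcription start) were at hand for 9 of the 10 members, all but *Myc*. These letters occurred in 4 of the 9, or 44.4%, and in 12.1% of the 8216 tested genes with a window. The 4 members were *Max*, *Mlx*, *Mnt* and *Mxd4*. The stretches around them are shown, 5′ to 3′ on the strand of the gene with the E-box in capitals, to let the sites of the 4 genes be compared. Of the 4 genes, 3 were called higher with DADA and *Mlx* was not called, where 30.9% of all genes tested were called higher. Of the 5 members without these letters, 3 (*Mycn*, *Mxd1* and *Mga*) were called higher too. *Mycn* had passed the filter only through the DADA group, and a link between these letters and the calls was not tested.
Max, chr12:76962234-76962263, minus strand: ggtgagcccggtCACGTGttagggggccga
Mlx, chr11:101087238-101087267, plus strand: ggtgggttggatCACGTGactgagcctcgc
Mnt, chr11:74830789-74830818, plus strand: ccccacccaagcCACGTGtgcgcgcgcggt
Mxd4, chr5:34187912-34187941, minus strand: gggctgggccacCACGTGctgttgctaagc
The first base of the E-box lay 3 bases before the annotated start in *Max*, 40 in *Mlx*, 123 in *Mnt* and 219 in *Mxd4*, and that of *Max* spans the start. The start used for *Max* is RefSeq's, and the bases after it were not found within a *Max* transcript of GENCODE M21. The windows of *Mycn*, *Mxd1*, *Mxd3*, *Mga* and *Mlxip* did not hold these letters. A match of letters describes a sequence and is not evidence of binding.

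Most of the network was higher in DADA-treated CD8+ T cells. The activators *Myc* and *Mycn*, the shared partner *Max*, the repressors *Mxd1*, *Mxd4* and *Mnt*, and to a small degree *Mga* rose, *Mxd3* fell, and the MLX branch was not called. *Mycn* reached 1 FPKM with DADA alone, so it passed the filter only through the group where it was high. Of the 9 other members, 6 were called higher, 1 was called lower and 2 were not called, and their median log2 fold change was 0.33, where the median over all genes tested was -0.02. Of all genes tested, 30.9% were called higher and 35.3% lower. The share called in either direction is near the 66.2% of all genes, and nothing is read from that pooled share. The 4 values of one group lay apart from those of the other in 6 of these 9 members, 5 upward and 1 downward, beside 60.6% of all genes tested (28.4% upward and 32.2% downward).

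**Figure D1:**
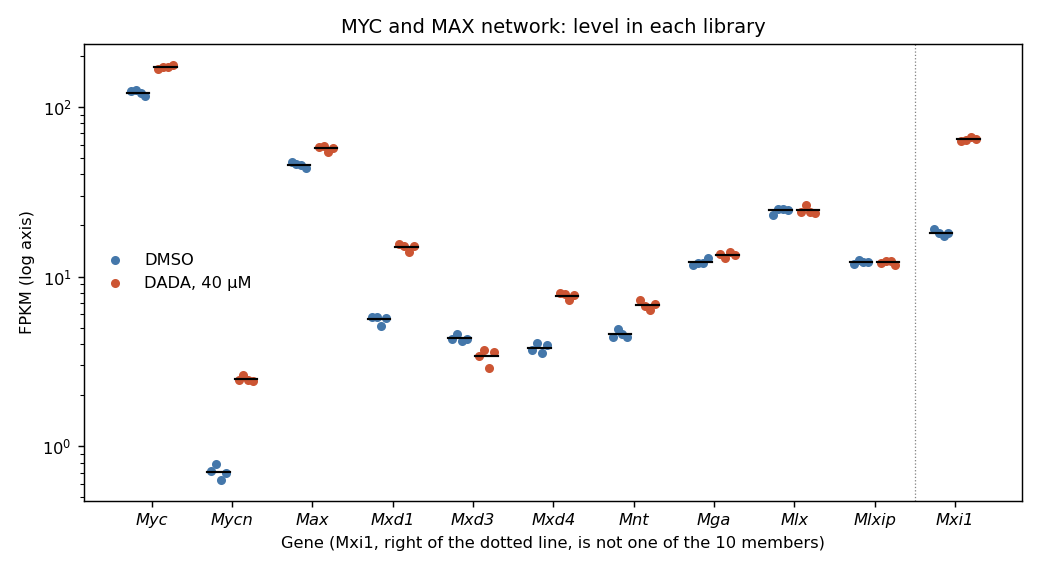
Expression of the network in each library, in FPKM on a log axis, for 4 DMSO (blue) and 4 DADA (red) libraries, with a black line at each mean. *Mycn*, *Mxd1*, *Mxd4* and *Mxi1* show the widest gaps between the groups, *Mxd3* is the one gene called lower with DADA, and *Mlx* and *Mlxip* overlap.

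*Myc* (ENSMUSG00000022346), the main activator, was the most abundant transcript of the network in both groups. Its level was 124, 126, 120.0 and 116 FPKM in DMSO 1 to 4 and 167, 172, 173 and 177 FPKM in DADA 1 to 4. Every DADA library was above every DMSO library, and the means were 121 ± 4.196 and 172 ± 4.28 FPKM (SD, n = 4), a ratio of 1.42. The log2 fold change was 0.50 (limma adjusted p = 2.13e-07, standard error 0.0294), and 1068 of the genes tested had a higher one. The two-sided exact permutation test gave p = 0.0286, the smallest value that 70 assignments allow.

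*Mycn* (ENSMUSG00000037169), a paralog of *Myc* best known from neural and other progenitor cells, was the least abundant member. It was at 0.711, 0.787, 0.632 and 0.693 FPKM with DMSO and at 2.46, 2.64, 2.47 and 2.44 FPKM with DADA. The 2 sets of values were far apart, with a ratio of means of 3.54. At the estimated depth and its longest annotated transcript, this corresponds to roughly 23 to 34 fragments per DMSO library and 101 to 131 per DADA library. Its log2 fold change was 1.04 (adjusted p = 1.14e-07, limma; exact permutation test, p = 0.0286). Limma without the filter, which *Mycn* passed only through the DADA group, gave an adjusted p = 3.6e-07. With a pseudocount of 0.1 the log2 fold change was 1.69, since a pseudocount of 1 compresses low values. Even so, *Mycn* amounted to 0.581% ± 0.0421 of the *Myc* level with DMSO and to 1.46% ± 0.0685 with DADA (SD, n = 4, both in FPKM).

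*Max* (ENSMUSG00000059436), the common partner, had a smaller log2 fold change than *Myc*, *Mxd1* and *Mxd4*. It was at 47.1, 45.9, 45.3 and 43.5 FPKM with DMSO and at 58.2, 58.7, 54.5 and 57.6 FPKM with DADA. The groups did not overlap, and the log2 fold change was 0.33 (limma adjusted p = 1.10e-05, standard error 0.0327), with a 95% interval of 0.25 to 0.40. Those of *Myc* (0.43 to 0.57), *Mxd1* and *Mxd4* lay above this interval, whereas the interval of *Mnt* (0.37 to 0.59) overlapped it, and differences between genes were not tested.

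The highest log2 fold change of FPKM + 1 among the members was that of *Mxd1* (ENSMUSG00000001156), which encodes MAD1, a repressor that competes with MYC for MAX. By the ratio of means, or with a pseudocount of 0.1 (1.40 for *Mxd1*, 1.69 for *Mycn*), *Mycn* stood above it. It was at 5.77, 5.78, 5.13 and 5.69 FPKM with DMSO and at 15.6, 15.1, 14.05 and 15.1 FPKM with DADA. The lowest DADA library lay well above the highest DMSO library. The means of 5.59 ± 0.312 and 15.0 ± 0.663 FPKM (SD, n = 4) gave a ratio of 2.67 and a log2 fold change of 1.28 (standard error 0.0475; adjusted p = 8.16e-09, limma). Only 230 of the genes tested had a higher log2 fold change. A called rise of at least 1 on this scale was found in 3.56% of all genes tested, and among the 9 members that reached 1 FPKM in both groups in *Mxd1* alone. With a pseudocount of 0.1, *Mxd4* reached 1.00 as well.

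*Mxd4* (ENSMUSG00000037235), another repressor of the family, was at 3.71, 4.06, 3.56 and 3.94 FPKM with DMSO and at 7.97, 7.87, 7.31 and 7.77 FPKM with DADA. Every DADA library was higher, by a ratio of means of 2.03 and a log2 fold change of 0.86 (adjusted p = 1.65e-07, limma). Exons of *Gm42846*, for which no value is given here, overlap *Mxd4* on the opposite strand, and their part in its values was not tested. *Mnt* (ENSMUSG00000000282), a broadly expressed repressor that also uses SIN3, was at 4.43, 4.88, 4.56 and 4.43 FPKM with DMSO and at 7.26, 6.74, 6.33 and 6.86 FPKM with DADA. It too was higher in all DADA libraries, with a log2 fold change of 0.48 (adjusted p = 1.39e-05, limma), close to that of *Myc*.

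*Mxd3* (ENSMUSG00000021485) is the MXD protein linked to proliferating cells in S phase, and it went the other way. It was at 4.30, 4.57, 4.15 and 4.28 FPKM with DMSO and at 3.43, 3.72, 2.88 and 3.60 FPKM with DADA. All DADA values were below all DMSO values, and DADA 3 was the lowest. The log2 fold change was -0.28 (limma adjusted p = 0.00404, standard error 0.0658; exact permutation test, p = 0.0286), and its spread with DADA, a coefficient of variation of 10.8%, was the widest among the members. Exons of *Prelid1* overlap *Mxd3* on the opposite strand, and *Prelid1* was far more abundant and moved upward, from 112 to 119 FPKM with DMSO to 153 to 160 FPKM with DADA. Whether fragments were counted by strand is not given in the sources used here.

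*Mga* (ENSMUSG00000033943), which carries a T-box besides its MAX-binding domain, was at 11.6, 12.04, 12.1 and 12.8 FPKM with DMSO and at 13.5, 12.8, 13.96 and 13.3 FPKM with DADA. DMSO 4 and DADA 2 met at 12.8 FPKM, so the groups overlapped. Its log2 fold change of 0.13 passed the limma test (adjusted p = 0.0132), while the exact permutation test gave p = 0.0571.

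The MLX branch differed little. *Mlx* (ENSMUSG00000017801) was at 23.2, 25.1, 25.2 and 24.7 FPKM with DMSO and at 24.1, 26.2, 24.1 and 23.8 FPKM with DADA. The fit gave a log2 fold change of 0.00 with a 95% interval of -0.09 to 0.09 (adjusted p = 0.961, limma). *Mlxip* (ENSMUSG00000038342) was at 11.9, 12.4, 12.3 and 12.2 FPKM with DMSO and at 11.95, 12.3, 12.4 and 11.8 FPKM with DADA. The fit gave a log2 fold change of -0.01 with a 95% interval of -0.08 to 0.06 (adjusted p = 0.789, limma). The groups overlapped for both genes, and both intervals stayed within 0.1 of 0. *Psmc3ip*, whose exons overlap *Mlx* on the opposite strand, was at 10.6 to 13.4 FPKM with DMSO and 5.94 to 9.63 FPKM with DADA, and its part in the *Mlx* values was not tested. Exons of *Gm15747*, for which no value is given here, overlap *Mlxip* in the same way. The *Mlxip* level was 0.498 ± 0.0114 of the *Mlx* level with DMSO and 0.493 ± 0.0192 with DADA (SD, n = 4).

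**Figure D2:**
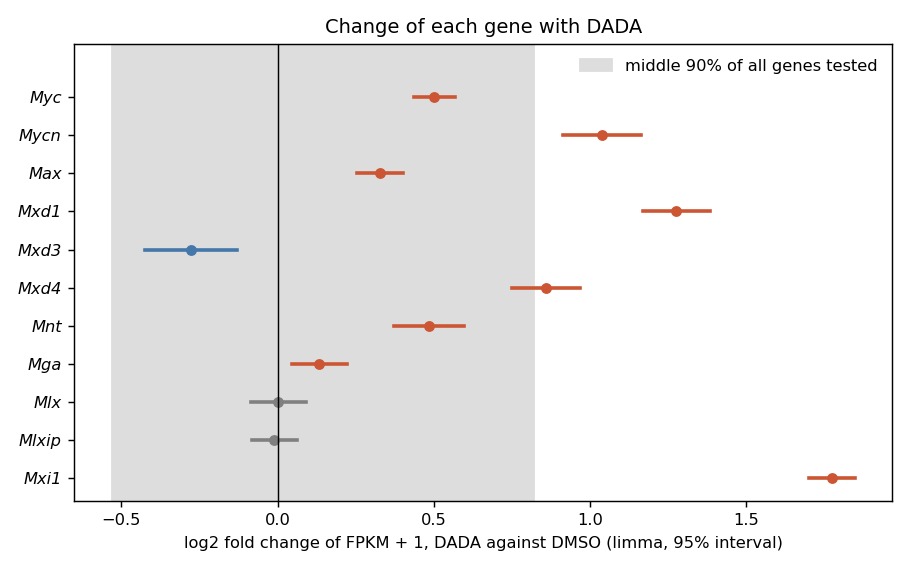
Log2 fold change of FPKM + 1 (DADA against DMSO) with its 95% interval from limma for each gene, where red is called higher, blue called lower and grey not called, over the middle 90% of all genes tested (-0.53 to 0.82, grey band). *Mycn*, *Mxd1*, *Mxd4* and *Mxi1* lie beyond the band and *Mlx* and *Mlxip* at 0.

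The network has 3 further genes that were not among the 10. *Mxi1* (ENSMUSG00000025025), the remaining MXD repressor, moved more than any member. It was at 19.2, 18.1, 17.3 and 18.0 FPKM with DMSO and at 63.0, 64.0, 66.03 and 64.5 FPKM with DADA, which makes it the most abundant MXD transcript in both groups. Exons of *Gm10197*, for which no value is given here, overlap *Mxi1* on the opposite strand, and the strand setting is unknown here too. All DADA libraries were more than 60 FPKM and all DMSO libraries under 20 FPKM. Its log2 fold change was 1.77 (limma adjusted p = 5.72e-11, standard error 0.0331), and 115 of the genes tested had a higher one. *Mycl*, the third MYC gene, lay between 0.192 and 0.666 FPKM in the 8 libraries with overlapping groups (limma without the filter, adjusted p = 0.771; exact permutation test, p = 0.800). *Mlxipl*, which encodes ChREBP, the relative of MLXIP, reached at most 0.131 FPKM and was listed at 0 in DADA 1 and DADA 4 (limma without the filter, adjusted p = 0.248).

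The order of the levels changed within the repressors and stayed the same at the top. With DMSO it ran *Myc*, *Max*, *Mlx*, *Mlxip*, *Mga*, *Mxd1*, *Mnt*, *Mxd3*, *Mxd4* and *Mycn*, where the library values of *Mlxip* and *Mga* overlapped, as did those of *Mnt* and *Mxd3*. With DADA, *Mxd1* came next after *Mlx*, above *Mga* and *Mlxip*, and *Mxd4* and *Mnt* stood above *Mxd3*. No neighbours in the DADA order overlapped.

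Because all dimers share MAX, the levels of its partners were also set against each other within each library, as a description without a test. Summed FPKM of *Mxd1*, *Mxd3*, *Mxd4* and *Mnt* was 18.3 ± 0.776 with DMSO and 32.9 ± 1.62 with DADA (SD, n = 4), beside 122 ± 4.24 and 175 ± 4.27 for *Myc* and *Mycn*. The ratio of these repressors to the activators was 0.150 ± 0.00584 with DMSO and 0.189 ± 0.0119 with DADA, and the groups did not overlap. With *Mxi1* counted among the repressors, which was added after its values were seen, the ratio was 0.299 ± 0.00994 with DMSO and 0.557 ± 0.0130 with DADA. Without *Mxi1*, *Myc* made up 79.6% ± 0.756 of all partner transcripts with DMSO and 77.9% ± 0.782 with DADA, and the groups overlapped. With it, *Myc* made up 71.1% ± 0.779 with DMSO and 60.3% ± 0.569 with DADA. The share of *Mxi1* was 10.6% ± 0.387 and 22.6% ± 0.376, that of *Mxd1* 3.28% ± 0.153 and 5.24% ± 0.279, and that of *Mxd3* 2.53% ± 0.0648 and 1.19% ± 0.129. *Mga* made up 7.12% ± 0.451 with DMSO and 4.70% ± 0.183 with DADA, although its own level was slightly higher with DADA. The partners together amounted to 3.76 ± 0.0756 times the *Max* level with DMSO and to 4.99 ± 0.202 times with DADA.

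**Figure D3:**
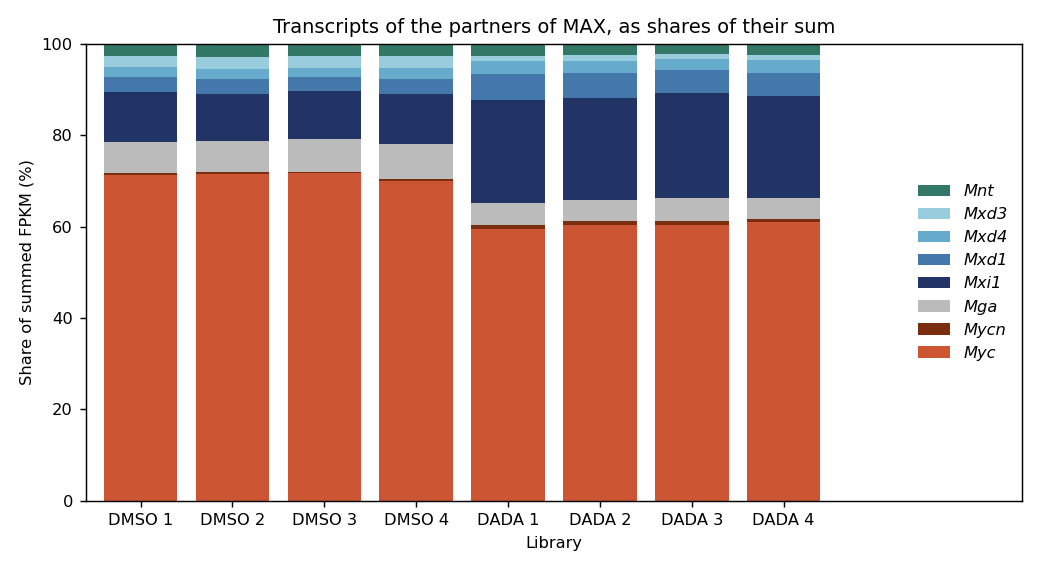
Share of each MAX partner in their summed FPKM, in percent, as 1 stacked bar for each of the 8 libraries. *Myc* takes 69.96% to 71.7% of each DMSO bar and 59.6% to 60.9% of each DADA bar, while *Mxi1* goes from 10.3% to 11.04% up to 22.2% to 23.1%.

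Genes that MYC is known to induce were mostly lower with DADA, in lists chosen with earlier results of these data known. Their counts are therefore a description. In a list of 22 such genes for ribosome biogenesis, all 22 were called lower with DADA, with a median log2 fold change of -0.48 and a range of -0.90 to -0.18, beside 35.3% called lower and a median of -0.02 over all genes tested. The count was 21 without the filter and without DMSO 1, DMSO 2, DMSO 4, DADA 2 or DADA 4, and 22 otherwise. *Wdr12*, a factor of large subunit assembly, fell most, from 31.5 ± 1.38 to 16.4 ± 1.09 FPKM (SD, n = 4; log2 fold change -0.90, adjusted p = 1.14e-07, limma). *Rrp9*, a component of the U3 snoRNP, followed, from 53.1 ± 1.95 to 31.0 ± 0.997 FPKM (log2 fold change -0.76, adjusted p = 2.98e-08, limma). *Nop58*, singled out after its values were seen, was the gene of this list with the widest spread and overlapping groups, at 114 ± 18.7 and 80.7 ± 22.6 FPKM (adjusted p = 0.0256, limma).

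In a second list of 22 MYC-induced genes, of metabolism, translation and the cell cycle, 14 were called lower, 7 were called higher and 1, *Eif4e*, was not called. Of all genes tested, 35.3% were called lower and 30.9% higher, so the share called higher here is near theirs. The median log2 fold change was -0.31, beside -0.02 over all genes tested. *Hk2*, the inducible hexokinase, fell most, from 77.0 ± 1.07 to 35.8 ± 0.550 FPKM (log2 fold change -1.08, adjusted p = 1.07e-10, limma), and *Nme1*, a nucleoside diphosphate kinase, from 53.7 ± 3.12 to 32.96 ± 3.02 FPKM (log2 fold change -0.69). *Ldha*, the lactate dehydrogenase subunit, rose most, from 1125 ± 69.4 to 1951 ± 45.4 FPKM (log2 fold change 0.80, adjusted p = 7.77e-08, limma), and *Tfrc*, the transferrin receptor, from a mean of 181 to one of 245 FPKM (log2 fold change 0.44). The value of *Ldha* is uncertain to the extent that its fragments could be split with processed pseudogenes. The E-box letters occurred in the windows of 7 of the 15 genes of this list that have one, 46.7%, and in 3 of 18 in the ribosome list, 16.7%. Among the 8216 tested genes with a window the share was 12.1%. Both lists were chosen as genes known to be induced by MYC, which binds E-boxes, and these shares are a description without a test.

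Targets of the MLX branch gave few values. *Txnip*, an inhibitor of glucose uptake and the best known target of MLXIP, was at 11.8, 11.2, 12.4 and 11.1 FPKM with DMSO and at 11.7, 11.3, 12.2 and 12.7 FPKM with DADA. The groups overlapped, with a log2 fold change of 0.04 and a 95% interval of -0.07 to 0.14 (adjusted p = 0.518, limma). Exons of *Gm15441*, for which no value is given here, overlap *Txnip* on the opposite strand. *Arrdc4*, a related arrestin and the other target listed, was below 1 FPKM throughout, at 0.446, 0.357, 0.150 and 0.137 FPKM with DMSO and at 0.614, 0.547, 0.924 and 0.679 FPKM with DADA. All its DADA values were higher (exact permutation test, p = 0.0286; limma without the filter, adjusted p = 0.00765), beside 48.7% of the 16167 genes called in that fit, at roughly 8 to 26 estimated fragments per DMSO library and 40 to 55 per DADA library. Proteins of this branch bind a pair of E-box-like elements a few bases apart. The letters CACGNG, any 5 bases and CACGNG again, searched on both strands, are in 0.0487% of all 32851 promoter windows, and the *Txnip* window (GRCm38.p6) holds them 85 bases before the start, shown with both elements in capitals.
Txnip, chr3:96557866-96557894, plus strand: actgtgCACGAGggctgCACGAGcctcca

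Transcripts of proteins that work with the network differed in both directions. Of 15 MYC cofactors, 5 were called higher, 7 lower and 3 were not called, with a median log2 fold change of -0.02, the same as over all genes, of which 30.9% were called higher and 35.3% lower. Among them *Kat5*, the acetyltransferase TIP60, rose from 21.2 ± 1.504 to 31.7 ± 1.16 FPKM (log2 fold change 0.57, adjusted p = 4.16e-06, limma), and *Trrap*, the scaffold of MYC-bound acetyltransferase complexes, had a log2 fold change of 0.21. *Ruvbl1* (-0.37) and *Actl6a* (-0.32), subunits of the same TIP60 complex, had the largest falls of this list.

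Of 17 genes that act on MYC turnover, 3 were called higher and 9 lower, with a median log2 fold change of -0.11, beside 30.9% and 35.3% of all genes tested. The kinases *Pim2* and *Pim1*, which phosphorylate MYC and are induced by cytokines, rose most, *Pim2* from 131 ± 2.29 to 236 ± 3.36 FPKM (log2 fold change 0.84, adjusted p = 3.92e-10, limma) and *Pim1* from 202 ± 6.09 to 254 ± 4.00 FPKM (log2 fold change 0.33). *Set*, an inhibitor of the phosphatase PP2A, fell from 349 ± 3.80 to 222 ± 3.18 FPKM (log2 fold change -0.65, adjusted p = 1.41e-09, limma), with the same uncertainty over processed pseudogenes, and *Aurka*, a mitotic kinase that shields MYC proteins from degradation, had a log2 fold change of -0.52. *Fbxw7*, singled out after its values were seen as the main ubiquitin ligase for MYC, was at 6.78 ± 0.261 and 6.50 ± 0.305 FPKM (adjusted p = 0.312, limma).

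Of the 12 genes of the SIN3 corepressor, which MXD proteins and MNT recruit, 1 was called higher, 7 lower and 4 were not called, with a median log2 fold change of -0.09. The share called in either direction is near the 66.2% of all genes tested. By direction, 30.9% of all genes tested were called higher and 35.3% lower. *Sap30* was the gene that rose, from 24.9 ± 1.00 to 45.3 ± 0.270 FPKM (log2 fold change 0.84, adjusted p = 6.76e-09, limma). The histone-binding subunits *Rbbp7* and *Rbbp4*, which other chromatin complexes share, fell, *Rbbp7* from 215 ± 5.41 to 130 ± 5.76 FPKM (log2 fold change -0.72) and *Rbbp4* with a log2 fold change of -0.37. *Sin3a* (-0.23) was called lower and *Sin3b* (0.15, adjusted p = 0.0502, limma) was not called, both named after their values were seen. Of the 10 partners of MGA in its Polycomb complex, 2 were called higher and 7 lower, with a median of -0.22, beside 30.9% and 35.3% of all genes tested. *Tfdp1*, which pairs with E2F6 and other E2F factors, fell from 183 ± 3.89 to 119 ± 2.46 FPKM (log2 fold change -0.61, adjusted p = 1.10e-08, limma), and *Yaf2* had a log2 fold change of -0.41. *Rybp*, a paralog of *Yaf2* in the same complex, went from 6.46 ± 0.511 to 8.87 ± 0.200 FPKM (log2 fold change 0.41, adjusted p = 6.90e-05, limma), and *Ring1*, a ubiquitin ligase subunit, had a log2 fold change of 0.20 with overlapping groups (adjusted p = 0.0249, limma).

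**Figure D4:**
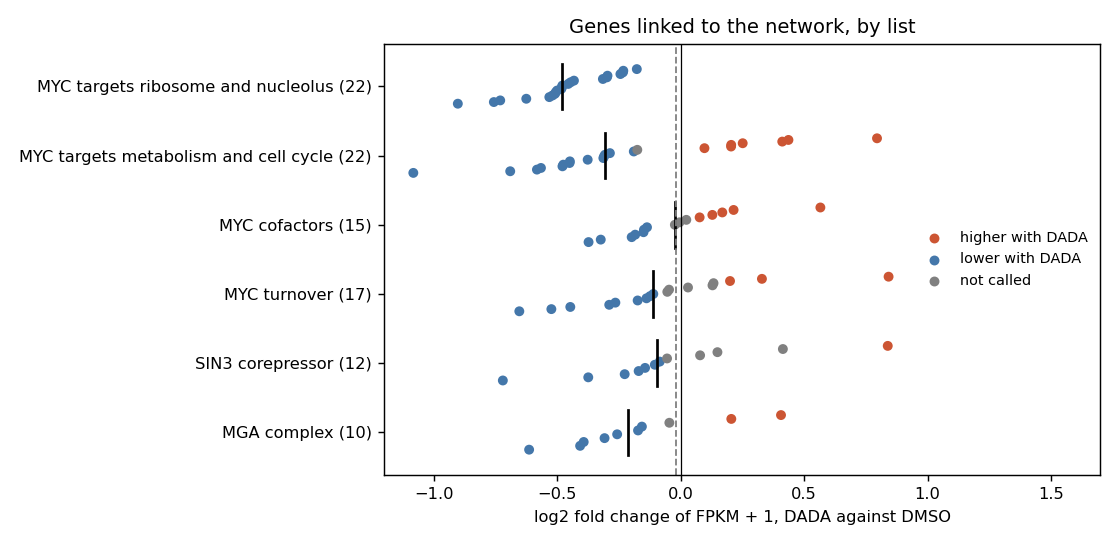
Log2 fold change of FPKM + 1 (DADA against DMSO) for each tested gene of 6 lists, with the list size in brackets, where red is called higher, blue called lower and grey not called, a black bar marks the median of a list and the dashed line the median of all genes tested (-0.02). All 22 ribosome biogenesis genes lie below 0, and the other lists have genes on both sides.

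Across the 8 libraries, the rows whose log2 values followed *Myc* most closely, among 8187 with a mean of at least 5 FPKM, were *Iigp1*, an interferon-inducible GTPase (Pearson r = 0.998), the assembled transcript MSTRG.10347.2 (r = 0.997) and *Pdia6*, a protein disulfide isomerase of the endoplasmic reticulum (r = 0.997). These correlations mostly describe the step between the 2 groups that the libraries share. *Iigp1* went from 4.69 to 5.65 FPKM with DMSO to 11.39 to 12.1 FPKM with DADA, and *Pdia6* from 93.3 to 102 FPKM to 138 to 141 FPKM.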

How the data were processed

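The 8 libraries were assigned to DMSO and DADA by their titles. The deposited FPKM table, made by the authors from paired reads of 150 bases, holds 1 value for each gene in each library. The submitters' processing notes list CASAVA 1.8.2, FastQC 0.11.9, HISAT2 2.0.5, StringTie 1.3.3, Picard 1.41 and SAMtools 0.1.18 and the builds GRCm39 and GRCh38, without roles, and the annotation, counting step and strand setting are not given in the sources used here. No gene coordinates are given for that reason, and promoter sequences carry the coordinates of RefSeq's table (GRCm38.p6).

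Values were analysed as log2(FPKM + 1), for genes at 1 FPKM or more in at least 4 libraries, with limma 3.58.1 (R 4.3.3; lmFit, eBayes with trend, Benjamini-Hochberg over 10666 genes). The script was tested on simulated data. Genes below the filter were read from a fit without it. For single genes, all 70 assignments of the libraries were also enumerated (exact permutation test, two-sided). Depth was estimated with transcript lengths of GENCODE M21 from 4431 genes with 1 transcript. Between 34.0% and 42.1% of the low values used came within 0.1 of whole fragments, beside 20% by chance, so depth is approximate and no count test was run.

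The members and lists were chosen with earlier results of these data known. Genes named are all members, *Mxi1*, *Mycl*, *Mlxipl*, *Txnip*, *Arrdc4*, the 2 largest called changes in each direction of each list, the 3 genes most like *Myc*, and those marked as named after their values were seen. Alternatives were a pseudocount of 0.1, no filter, a mean of at least 5 FPKM, TPM rescaling, median-ratio and quantile scaling, no variance trend, the replicate block, each library left out, and, added after the data were seen, leaving out assembled transcripts and adding *Mxi1* to the repressors. Software also included Python 3.11.15, numpy 2.4.6, pandas 2.3.3 and matplotlib 3.10.9.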

Additional observations from a re-analysis of the deposited data

Results flagged for a closer look

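Dixon's ratio was computed for the members, *Mxi1*, *Mycl*, *Mlxipl*, *Txnip*, *Arrdc4* and the 2 largest called changes in each direction of each list. The cell type markers, *Eif4e* and the other genes named above were not tested in this way. The ratio is the gap between an extreme library and its neighbour, over the range of the 4 values. It passed its 95% critical value in 4 of 72 groups. About 1 in 20 groups, here 3.6, would do so by chance. *Mycn* was at 2.64 FPKM in DADA 2 and at 2.44 to 2.47 FPKM in the other DADA libraries (ratio 0.853). *Mxd1* was at 5.13 FPKM in DMSO 3 and at 5.69 to 5.78 FPKM in the other DMSO libraries (ratio 0.861). *Mlx* was at 26.2 FPKM in DADA 2 and at 23.8 to 24.1 FPKM in the others (ratio 0.860). *Tfrc* was at 183 FPKM in DMSO 4 and at 180 FPKM in the others (ratio 0.932). For *Mycn*, *Mxd1* and *Tfrc* the gap was smaller than the distance between DMSO and DADA libraries.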

How the results depend on the processing

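The calls of the 8 called members kept their direction and their side of the threshold wherever they were tested. *Mycn* is among them, although it passed the filter only through the group where it was high. A mean of at least 5 FPKM left 8 members, without *Mycn* and *Mxd3*, and so 0 called lower. *Mycn* ranged from 0.82 (quantile normalization) to 1.69 (pseudocount 0.1) on the log2 scale and *Mxd3* from -0.39 to -0.22. The sign of the uncalled *Mlx* turned without DMSO 1 (-0.0238) and without DADA 2 (-0.0283; leaving out each library gave -0.0283 to 0.0168), and that of *Mlxip* with TPM rescaling (0.02), with median-ratio scaling (0.0089) and without DADA 4 (0.0022; leaving out each library gave -0.0221 to 0.0022). Over the whole table the alternatives called 2458 to 4007 genes higher and 3283 to 4116 lower. The fit used above called 3296 higher and 3768 lower, and median-ratio scaling 3522 and 3544. Higher calls outnumbered lower ones with TPM rescaling (3602 and 3379) and without the filter (4007 and 3861). Which direction had more calls over all genes thus depended on the processing. No scaling moved the median of all genes by 0.1.

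The SIN3 genes called higher were 2 at a mean of at least 5 FPKM and without assembled transcripts, and 3 with TPM, median-ratio or quantile scaling. They were 1 to 2 with each library left out, with 2 without DMSO 2, DADA 1 or DADA 3. The MGA partners called higher were 1 with quantile normalization and 1 to 2 with each library left out, with 1 without DMSO 1, DMSO 3, DADA 1 or DADA 2. Without the filter, 1 MLX branch target, *Arrdc4*, was called higher. With *Mxi1* added, the repressor to activator ratio was 0.299 with DMSO and 0.557 with DADA, against 0.150 and 0.189.

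Same-numbered libraries deviated from their group means with correlations of -0.12 to 0.10, beside -0.27 to 0.13 for libraries of other numbers. No pairing by number was seen, but so few correlations cannot tell whether same-numbered libraries shared a source. The replicate block gave 3251 genes higher and 3744 lower and changed no call of a member, while the MYC cofactors called higher were 4 in place of 5. Of the 8 libraries, 1 correlated best with its own number. Depth limits what can be said of *Mycl*, *Mlxipl* and *Arrdc4*, which are below 1 FPKM.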
